A study of Mus musculus with 12 samples.

Results

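The nuclear genes of oxidative phosphorylation were taken as the protein-coding genes outside the mitochondrial genome whose mouse symbols name subunits or assembly factors of the respiratory complexes and ATP synthase (symbols that begin with Nduf, Uqcr, Cox4 to Cox8 or Atp5, and Sdha to Sdhd). The rule found 94 genes under 93 symbols, of 54532 genes in the expression table and 22046 protein-coding ones. The rule rests on names only and uses no expression value, but it was chosen with earlier results of these data known. Total RNA from the hyperplastic mammary gland of female FVB/N mice was sequenced in 12 libraries, 4 from each of 3 genotypes, called MIC Stat3 ko, MIC Chi3l1 ko and MIC WT in the labels. Every group, WT included, received doxycycline at 2 mg/ml in the drinking water, and the titles carry 2wk. In MIC mice doxycycline switches on the polyoma middle T oncogene and Cre recombinase in the mammary epithelium, so WT glands carry the oncogene too. The labels name neither the knockout alleles nor the cells in which they are deleted, the age of the mice, a batch, or a pairing between groups. They do not say that the 4 libraries of a group came from separate animals, so p-values measure the spread between these libraries, which may be technical. Libraries are numbered 1 to 4 within each group.

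Oxidative phosphorylation passes electrons from NADH through complex I, and from succinate through complex II, to ubiquinone, complex III, cytochrome c and complex IV, where oxygen is reduced. Complexes I, III and IV pump protons across the inner mitochondrial membrane, and ATP synthase uses the gradient to make ATP. Most subunits are encoded in the nucleus and imported, while the mitochondrial genome supplies a small core of complexes I, III, IV and ATP synthase. Some complex IV subunits exist as a ubiquitous isoform and as one restricted to heart, skeletal muscle, brown fat, lung or testis. By role the members were 7 core and 29 accessory subunits of complex I, 8 complex I assembly factors, 4 subunits of complex II, 8 of complex III, 11 ubiquitous and 8 restricted subunits of complex IV, 5 subunits of the catalytic F1 part of ATP synthase, 12 entries for its stalk and membrane part Fo, the supercomplex factor Cox7a2l, and Atp5s, a coupling factor related to ATP synthase.

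The genotypes were read first at the targeted genes. Stat3, the transcription factor downstream of cytokine receptors, had 18.8, 17.8, 14.3 and 12.2 FPKM (fragments scaled by the length of the gene and the size of the library) in the Stat3 ko libraries, against 46.2 to 49.7 FPKM in WT. Chil1, the mouse gene for Chi3l1, had 0 to 0.0323 FPKM in Chi3l1 ko and 106.9 to 212.3 FPKM in WT. Both match the labels, and Stat3 RNA was still present in Stat3 ko glands. Chil1 was also low in Stat3 ko, at 17.6, 4.92, 10.8 and 13.6 FPKM in Stat3 ko 1 to 4, below every WT library. Stat3 had 46.7 to 53.3 FPKM in Chi3l1 ko. Stat3 ko therefore differs from WT in the RNA of both targeted genes. Libraries held 16217143 to 22607123 counts, of which 153216 to 325760 fell in the members. Genes of other tissues differed between libraries of one group. The brown fat gene Ucp1 stood at 176, 357, 74.3 and 0.194 FPKM in Stat3 ko 1 to 4, at 0.369, 97.7, 0.0306 and 0.274 FPKM in Chi3l1 ko 1 to 4, and at 0 to 2.30 FPKM in WT. The skeletal muscle actin Acta1 exceeded 1000 FPKM in Stat3 ko 2, Stat3 ko 4, Chi3l1 ko 2 and WT 2, at 4759, 2509, 3693 and 1224 FPKM, and was 5.03 to 604 FPKM in the other 8 libraries. In whole glands such as these, fewer cells of a type and less RNA per cell cannot be told apart.

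The promoters of a few members are printed for the motifs they hold or lack: Cox6a1 and Sdha have a pair of NRF1 motifs each, Uqcrh has an ETS motif next to its start, and Cox8b, Cox7a1 and Atp5g1 have neither. Cox8b and Cox7a1 had the largest fold changes for Stat3 ko against WT below, and Atp5g1, through Stat3 ko 1, the lowest. Having neither motif does not set these genes apart, because most members with a promoter hold neither. A link between motifs and fold changes was not tested. The stretches are RefSeq sequence of GRCm38.p6, 5′ to 3′ on the strand of the gene, from up to 250 bases upstream to the base before the gene start in the deposited table. Capitals mark a motif match.
Cox6a1 promoter, chr5:115348982-115349208, minus strand: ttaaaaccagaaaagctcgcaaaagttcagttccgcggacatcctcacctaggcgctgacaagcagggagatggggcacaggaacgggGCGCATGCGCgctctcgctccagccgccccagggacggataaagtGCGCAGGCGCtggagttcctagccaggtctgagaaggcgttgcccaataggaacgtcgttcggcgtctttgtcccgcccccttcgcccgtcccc
Sdha promoter, chr13:74350281-74350490, minus strand: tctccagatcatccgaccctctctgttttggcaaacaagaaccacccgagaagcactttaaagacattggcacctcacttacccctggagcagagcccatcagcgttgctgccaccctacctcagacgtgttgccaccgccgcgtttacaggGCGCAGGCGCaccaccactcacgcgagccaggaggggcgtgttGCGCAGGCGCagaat
Uqcrh promoter, chr4:116075072-116075320, minus strand: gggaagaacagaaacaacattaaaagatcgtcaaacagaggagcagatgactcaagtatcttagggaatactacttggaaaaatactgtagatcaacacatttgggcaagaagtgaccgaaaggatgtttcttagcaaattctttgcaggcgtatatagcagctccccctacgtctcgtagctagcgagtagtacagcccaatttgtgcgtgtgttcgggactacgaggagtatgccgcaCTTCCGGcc
Cox8b promoter, chr7:140900447-140900696, minus strand: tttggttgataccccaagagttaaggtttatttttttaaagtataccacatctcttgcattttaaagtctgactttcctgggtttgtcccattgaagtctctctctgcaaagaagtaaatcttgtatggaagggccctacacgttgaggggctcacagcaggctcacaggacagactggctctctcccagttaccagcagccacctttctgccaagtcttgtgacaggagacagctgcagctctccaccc
Cox7a1 promoter, chr7:30183921-30184143, plus strand: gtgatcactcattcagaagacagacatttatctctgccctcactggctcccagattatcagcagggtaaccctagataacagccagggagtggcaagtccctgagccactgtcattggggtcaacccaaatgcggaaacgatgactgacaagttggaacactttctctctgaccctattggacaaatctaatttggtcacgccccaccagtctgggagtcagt
Atp5g1 promoter, chr11:96075671-96075881, minus strand: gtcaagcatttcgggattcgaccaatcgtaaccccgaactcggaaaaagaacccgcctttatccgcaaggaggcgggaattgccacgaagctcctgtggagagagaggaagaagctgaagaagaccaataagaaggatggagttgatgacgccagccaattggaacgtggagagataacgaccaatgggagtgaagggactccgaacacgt
NRF1 is a transcription factor known for activating respiratory chain genes, and its motif was searched as the letters GCGCA and GCGC on either side of 1 base of any kind. GABPA, an ETS factor with the same reputation, was searched as CCGGAAG, which reads CTTCCGG on the other strand as in Uqcrh. Both strands of the 250 bases upstream were searched. A promoter was found for 74 of the 93 symbols, and 14 of the 74 (18.9%) held the NRF1 letters, against 4.23% of 27025 genes. The ETS letters stood in 14 of 74 (18.9%), against 7.83% of all genes. Cox6a1 is among these 14 through a match that is not within its printed stretch. The STAT letters TTCNNNGAA stood in 4 of 74 (5.41%), those of Atp5d, Atp5o, Ndufa8 and Ndufb6, against 8.13% of all genes. These are matches of letters, not measured binding, and they were not tested. The motifs do not overlap in the printed stretches.

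Per length, the levels spanned more than 2 orders of magnitude, and roles differed. Ubiquitous complex IV subunits were the most abundant, with a median of 145.4 FPKM over the mean of 12 libraries, led by Cox6a1 at 463 FPKM and Cox8a at 454 FPKM, a pair of small membrane subunits, while Cox6c was lowest at 40.0 FPKM. The F1 subunits had a median of 129.6 FPKM, from the catalytic-head genes Atp5a1 (332.8 FPKM) and Atp5b (315.6 FPKM) to Atp5e of the central stalk at 73.2 FPKM. Complex III had a median of 101.6 FPKM, from 61.5 FPKM for the core protein gene Uqcrc2 to 156.3 FPKM for the small subunit gene Uqcr10. Complex II, the succinate dehydrogenase, had a median of 73.4 FPKM, with Sdhd, a membrane anchor, highest at 109.3 FPKM. Complex I core subunits had a median of 51.5 FPKM, and Ndufs1 had 13.5 FPKM. Accessory subunits of complex I had a median of 43.8 FPKM, with Ndufa2 (108.8 FPKM) and Ndufb11 (96.8 FPKM) on top and Ndufb2 lowest at 1.77 FPKM. Complex I assembly factors, which help to build the complex and do not stay in it, were low, with a median of 6.09 FPKM and a range from 3.97 FPKM (Ndufaf2) to 19.4 FPKM (Ndufaf8). The remaining 3 entries were not tested because they missed the filter of at least 1 FPKM in at least 4 libraries. They were Cox7b2 and a second Atp5o identifier, both at 0 in all 12 libraries, and Cox8c, with 3 counts in Chi3l1 ko 3 and 0 elsewhere; Cox7b2 and Cox8c are testis isoforms. Tested were 91 entries. Of the 94, 40 overlap another annotated gene, 32 of them one on the opposite strand, and the sources used here do not say whether counting used strand, so the values of Ndufs1, Ndufs3, Sdha, Uqcrc2, Cox6c, Cox6a2 and Ndufa4l2, among others, may include reads of a neighbour.

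The members' share of the library stood apart in 3 of the 12 libraries. As a percentage of the summed FPKM of protein-coding genes, the 94 members took 3.58, 3.27, 2.31 and 2.41% in Stat3 ko 1 to 4, 2.19, 3.12, 2.01 and 1.89% in Chi3l1 ko 1 to 4, and 2.19, 2.37, 2.19 and 2.14% in WT 1 to 4. Stat3 ko 1, Stat3 ko 2 and Chi3l1 ko 2 were above every other library, and the remaining 9 lay between 1.89 and 2.41%. The group means were 2.89 ± 0.628% in Stat3 ko, 2.30 ± 0.560% in Chi3l1 ko and 2.23 ± 0.101% in WT (SD, n = 4 each), so the spread within either knockout group was more than 5 times that of WT. The 13 protein-coding genes of the mitochondrial genome put the same 3 libraries on top, where Stat3 ko 1 had 12.1%, Stat3 ko 2 had 8.59% and Chi3l1 ko 2 had 5.83%. Stat3 ko 3 came next at 5.05%, and the other libraries took 2.78 to 4.59%. The 13 genes were counted at very unlike levels, so this share rests on the abundant ones. Means over the 12 libraries were 4194 FPKM for mt-Co1, 44.2 FPKM for mt-Co2 and 3.93 FPKM for mt-Atp8.

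**Figure D1:**
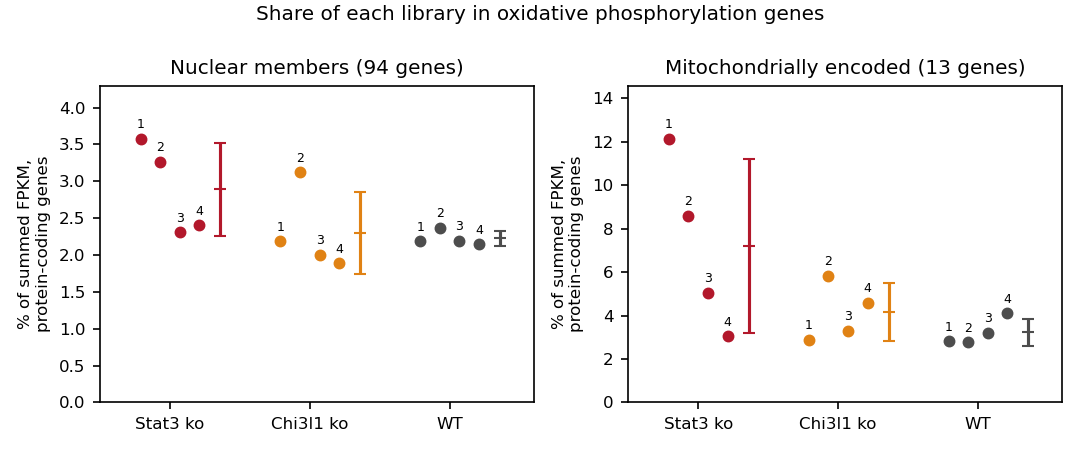
Percentage of the summed FPKM of protein-coding genes in the 94 nuclear members (left) and in the 13 mitochondrially encoded genes (right), by group on the x axis. Points are libraries with their number, and bars give mean ± SD (n = 4). Stat3 ko 1, Stat3 ko 2 and Chi3l1 ko 2 are the highest libraries in both panels.

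The same libraries stood apart across nearly all members. In Stat3 ko 1 and Stat3 ko 2, 78 and 80 of the 91 tested members were above all 4 WT libraries, and in Chi3l1 ko 2 again 78 were. In Stat3 ko 3 and Stat3 ko 4 the number was 19 and 40, and in Chi3l1 ko 1, 3 and 4 it was 2, 3 and 2. Over all 13643 tested genes, 27.9 to 35.8% were above all WT libraries in the Stat3 ko libraries and 16.3 to 23.1% in the Chi3l1 ko libraries. The median member differed from the WT mean by 0.86, 0.61, 0.00 and 0.20 on the log2(FPKM + 1) scale in Stat3 ko 1 to 4, and by -0.07, 0.56, -0.10 and -0.22 in Chi3l1 ko 1 to 4. Chi3l1 ko 4 lay furthest on the other side, with 64 of 91 members (70.3%) below all 4 WT libraries, against 19.9% of all tested genes. In Chi3l1 ko 1 and Chi3l1 ko 3 it was 34 of 91 each (37.4%), against 15.05% and 20.4% of all tested genes. Within Stat3 ko 1, complexes I (core) and II differed most, by medians of 1.29 and 1.40, and the stalk and Fo genes least among the complexes, by 0.48.

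**Figure D2:**
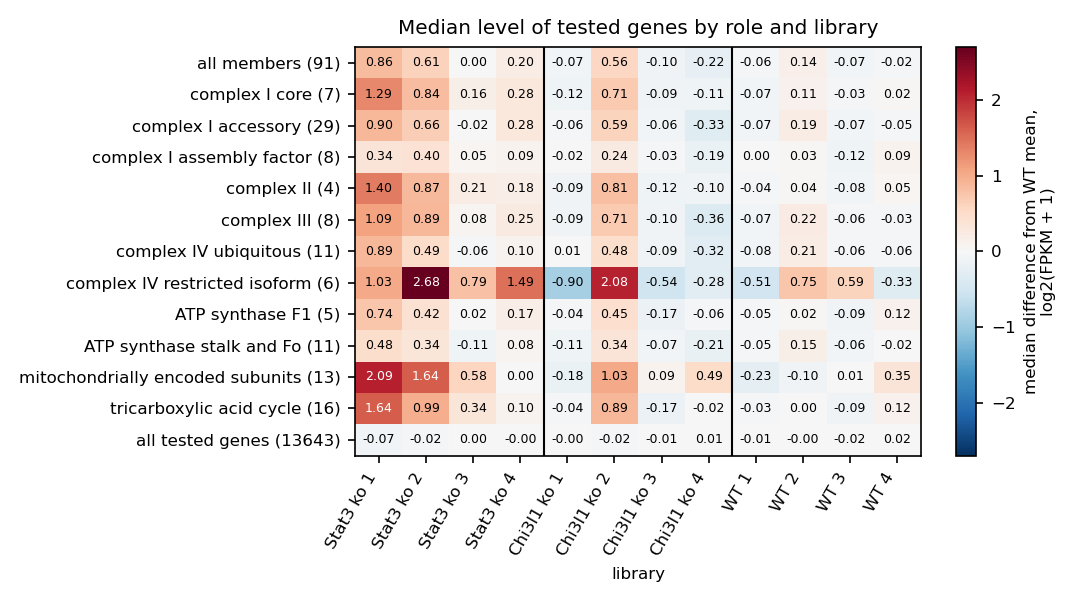
Median difference from the WT mean on the log2(FPKM + 1) scale, by role (rows, with the number of tested genes) and library (columns). Colour and printed value give the same number, red above and blue below the WT mean. Stat3 ko 1, Stat3 ko 2 and Chi3l1 ko 2 are red in every role, while the median of all 13643 tested genes stays within 0.08 of 0 in every library.

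Marker genes of other cell types also differed between libraries, and not all of their lists followed Stat3 ko 1, Stat3 ko 2 and Chi3l1 ko 2. The 12 white adipocyte markers summed to 10400, 1506, 1358 and 1047 FPKM in Stat3 ko 1 to 4, 314, 1411, 295 and 355 in Chi3l1 ko 1 to 4, and 195 to 612 in WT. The sum of 7 brown adipocyte markers outside the members, which include Ucp1, was 589, 585, 148 and 2.95 in Stat3 ko 1 to 4, 237.9 in Chi3l1 ko 2 and 2.08 to 3.22 in the other Chi3l1 ko libraries, and 2.94 to 10.1 in WT; their defining regulator Prdm16 was at most 2.39 FPKM in any library, and Zic1 at most 0.190 FPKM. The sum of 17 skeletal muscle markers was 12290 in Stat3 ko 2, 7011 in Stat3 ko 4, 10320 in Chi3l1 ko 2 and 3339 in WT 2, and 17.8 to 1387 in the other 8 libraries. The sum of 12 luminal epithelial markers was 1261, 1392, 2667 and 2965 in Stat3 ko 1 to 4, 2178 to 2936 in Chi3l1 ko and 2366 to 3501 in WT. Milk and alveolar markers, 10 genes, summed to 367 to 1217 FPKM in all 4 Stat3 ko libraries, 3522 to 4763 in Chi3l1 ko and 3873 to 5252 in WT. Of the remaining lists, 8 B cell markers summed to 32.4 to 667 FPKM in Stat3 ko, 10.4 to 30.2 in Chi3l1 ko and 8.999 to 20.8 in WT, and 10 T cell markers to 31.5 to 305 in Stat3 ko, 21.4 to 40.2 in Chi3l1 ko and 18.0 to 38.6 in WT. The sum of 9 macrophage markers was 1398 to 2270 in Stat3 ko, 969 to 1321 in Chi3l1 ko and 876 to 1570 in WT, and that of 6 endothelial markers 33.5 to 109 in Stat3 ko, 19.0 to 36.6 in Chi3l1 ko and 22.3 to 33.9 in WT. Sums of 7 fibroblast markers (255 to 989 FPKM in Stat3 ko, 205 to 444 in Chi3l1 ko, 258 to 790 in WT) and of 7 myoepithelial markers (38.4 to 335 in Stat3 ko, 99.4 to 123.5 in Chi3l1 ko, 51.9 to 135 in WT) overlapped between all groups. The part of these cell types in the members' values was not tested.

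Stat3 ko against WT asks how loss of STAT3 changes the gland under the same oncogene. Nearly all members had higher group means in Stat3 ko, and 1 passed the test. Of 91 tested members, 85 had a positive fold change and 6 a negative one, with a median log2 fold change of 0.42, against -0.02 over all tested genes, of which 46.9% were positive. limma called 1 member higher and 0 lower at an adjusted p under 0.05, where 5.61% of all tested genes were called higher and 8.39% lower, so the share of members called (1.10%) was below the background. At an unadjusted p under 0.05, 25 members (27.5%) were higher, against 16.6% of all tested genes, and 0 were lower, against 17.5%. In 13 members (14.3%) all 4 Stat3 ko libraries were above all 4 WT libraries, against 9.67% of all tested genes. Without the 3 libraries with over 2% of counts in mitochondrial genes (Stat3 ko 1, Stat3 ko 2 and Chi3l1 ko 2) the median was 0.10. Without the 4 with over 10 FPKM of Ucp1 (Stat3 ko 1 to 3 and Chi3l1 ko 2) it was 0.20. That value rests on Stat3 ko 4 as the only Stat3 ko library.

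**Figure D3:**
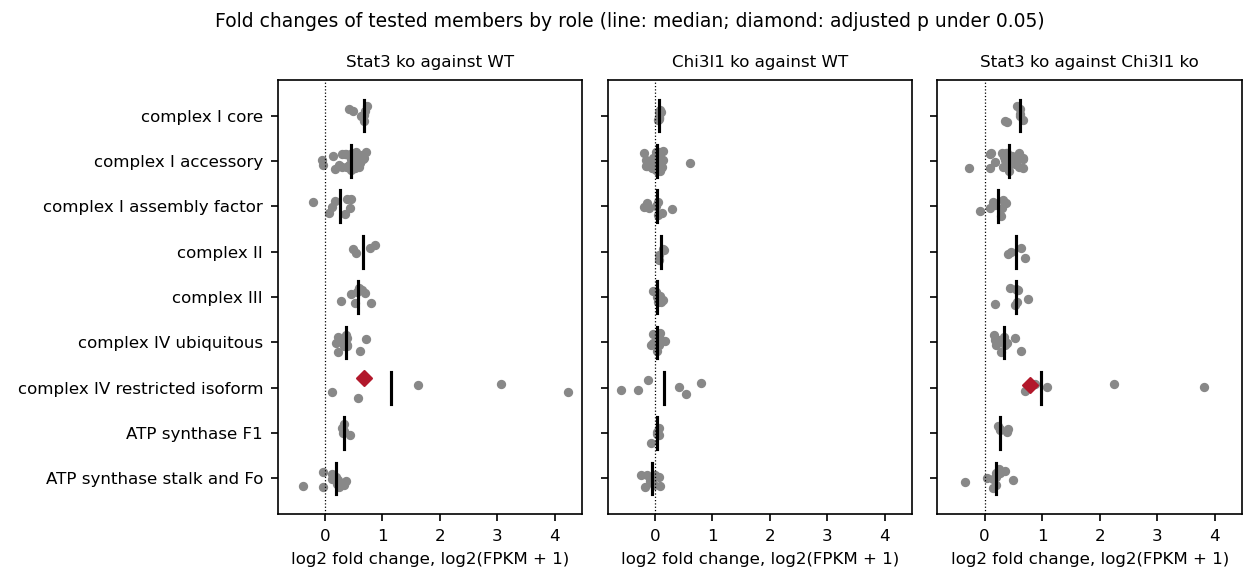
Log2 fold changes on the log2(FPKM + 1) scale (x axis) of tested members by role (y axis), for the 3 comparisons; roles with 1 member are left out. Each point is a gene, the line is the median of its role and red diamonds mark an adjusted p under 0.05. Medians run from 0.19 to 1.15 for Stat3 ko against WT and from -0.04 to 0.15 for Chi3l1 ko against WT, and Cox6b2 is the diamond in both panels that have one.

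All 7 complex I core subunits had positive fold changes, with a median of 0.68 and 0 called. Of them, 6 had an unadjusted p under 0.05 and 5 had no overlap, against 16.6% and 9.67% of all tested genes in that direction. Ndufs3, a subunit of the arm that protrudes into the matrix, had 68.3, 48.9, 30.3 and 36.3 FPKM in Stat3 ko 1 to 4, against 25.1, 28.4, 27.1 and 27.4 FPKM in WT 1 to 4. Every Stat3 ko library was above every WT library, and Stat3 ko 3 and 4 lay closer to WT than Stat3 ko 1 and 2. The log2 fold change was 0.68 ± 0.25 (SE), with limma adjusted p = 0.0855. Ndufv1, which binds NADH, had 71.8 ± 29.0 FPKM in Stat3 ko and 40.5 ± 4.17 FPKM in WT (SD, n = 4), a log2 fold change of 0.73 ± 0.29 with limma adjusted p = 0.102. Ndufs8, an iron-sulphur subunit, was the smallest of the 7 at 0.42 ± 0.15. The median of the 29 accessory subunits was 0.46, with 27 positive and 0 called. Ndufa10 (0.68 ± 0.25, limma adjusted p = 0.0843) and Ndufa9 (0.54 ± 0.20, limma adjusted p = 0.0888) had the lowest p among them, both without overlap. The 2 negative ones were Ndufc2 (-0.06 ± 0.13) and Ndufb2 (-0.03 ± 0.14).

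Complex I assembly factors had a median of 0.26, with 7 of 8 positive and 0 called. Ndufaf4 had 7.78, 8.02, 6.42 and 5.03 FPKM in Stat3 ko 1 to 4, against 4.85, 4.80, 4.22 and 5.09 FPKM in WT 1 to 4. The groups overlapped only through Stat3 ko 4 and WT 4. Its log2 fold change was 0.43 ± 0.13, with limma adjusted p = 0.0502, and it was called in 5 of 20 alternative analyses. Ndufaf2, an assembly factor of the late stage, was the one negative member of the role, at -0.21 ± 0.12.

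In complex II all 4 subunits were positive, with a median of 0.66, 0 called and 3 with an unadjusted p under 0.05. Sdhb, its iron-sulphur subunit, had 138.1, 98.6, 55.8 and 59.0 FPKM in Stat3 ko 1 to 4, against 42.8, 47.6, 42.0 and 45.0 FPKM in WT 1 to 4. The Stat3 ko libraries were all above the WT ones, with Stat3 ko 1 and 2 well apart from Stat3 ko 3 and 4. The log2 fold change was 0.87 ± 0.30, with limma adjusted p = 0.0700. Sdha, the flavoprotein that oxidises succinate, had 206.9, 122.2, 80.5 and 67.7 FPKM in Stat3 ko 1 to 4, against 58.0 to 69.8 FPKM in WT, and the groups overlapped. In complex III all 8 subunits were positive, with a median of 0.58, 0 called and 3 with an unadjusted p under 0.05. Uqcrc1, a core protein, had 67.8 to 138.4 FPKM in Stat3 ko and 53.8 to 63.5 FPKM in WT, with no overlap and a log2 fold change of 0.70 ± 0.26 (limma adjusted p = 0.0840).

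Ubiquitous complex IV subunits and ATP synthase differed less. The 11 ubiquitous complex IV genes were all positive, with a median of 0.36 and 0 called. Cox6c (0.71 ± 0.31) and Cox5a (0.61) were the highest of them, and Cox7c (0.20) the lowest. Cox6a1, the most abundant member, had 901, 569, 413 and 366 FPKM in Stat3 ko 1 to 4, against 389 to 420 FPKM in WT. Stat3 ko 1 alone was more than 2 times the highest WT library, and Stat3 ko 4 was below the lowest. The 5 F1 genes were all positive, with a median of 0.34 and 0 called, and Atp5b, the catalytic beta subunit, had 384 ± 132 FPKM in Stat3 ko and 274 ± 21.2 FPKM in WT (SD, n = 4). Stalk and Fo genes had a median of 0.19, with 8 of 11 positive and 0 called. The supercomplex factor Cox7a2l had a log2 fold change of 0.30 ± 0.14 and Atp5s one of 0.15 ± 0.19.

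The 3 genes for the c subunit, the proton-carrying ring of ATP synthase, did not share the positive values; they were grouped after their values were seen. Atp5g1 had 7.45, 21.3, 16.4 and 23.5 FPKM in Stat3 ko 1 to 4, against 19.5, 23.4, 19.1 and 21.9 FPKM in WT 1 to 4. Stat3 ko 1, the library with the highest share in members, had the lowest Atp5g1 of all 12, from 610 counts. Atp5g2 had 82.8 ± 5.26 FPKM in Stat3 ko and 85.0 ± 2.50 FPKM in WT, (SD, n = 4), and Atp5g3 had 97.9 to 127 FPKM in Stat3 ko and 104 to 130 FPKM in WT. Their log2 fold changes were -0.38 ± 0.27, -0.04 ± 0.10 and -0.04 ± 0.15 for Atp5g1, Atp5g2 and Atp5g3, and 0 of the 3 were called. Without Stat3 ko 1 the log2 fold change of Atp5g1 was -0.05 ± 0.12. It was 0.16 without the libraries with over 10 FPKM of Ucp1, where Stat3 ko 4 is the only Stat3 ko library. The encoded c subunits differ in their import sequences and are the same in the mature protein.

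Restricted isoforms of complex IV held the called member and the widest values. All 6 tested were positive, with a median of 1.15, 1 called and 3 without overlap. Over all tested genes 5.61% were called higher and 9.67% had no overlap in that direction. Cox6b2, the testis isoform of Cox6b1, lies at GRCm38 chr7:4751792-4753094 on the minus strand. It had 1.25, 2.25, 1.63 and 1.24 FPKM in Stat3 ko 1 to 4, against 0.909, 0.363, 0.618 and 0.566 FPKM in WT 1 to 4. All Stat3 ko libraries were above all WT libraries, at a level resting on 23 to 45 counts in Stat3 ko and 9 to 18 counts in WT. Cox6b2 rose by 0.68 ± 0.17, with limma adjusted p = 0.0269. The call held in 10 of 19 alternatives, with adjusted p from 0.00884 to 0.276, and ended when WT 2, WT 3, WT 4 or Stat3 ko 2 was left out. It also ended without the filter, with quantile normalization and in a fit of the compared groups only. The call ended too without the libraries with over 2% of counts in mitochondrial genes, where Sdhb was called in its place. The fit without the libraries with over 10 FPKM of Ucp1 leaves Stat3 ko 4 as the only Stat3 ko library, so it cannot decide the call. Cox6b2 was 0.572 ± 0.204% of the Cox6b2 and Cox6b1 sum in Stat3 ko and 0.276 ± 0.115% in WT (SD, n = 4).

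Cox8b and Cox7a1 are the isoforms of heart, skeletal muscle and brown fat. Cox8b, at chr7:140898945-140900446, had 494, 478, 104 and 94.4 FPKM in Stat3 ko 1 to 4, 1.79, 357.7, 5.99 and 7.78 FPKM in Chi3l1 ko 1 to 4, and 0.622, 43.7, 18.6 and 12.3 FPKM in WT 1 to 4. Every Stat3 ko library was above every WT library, and so was Chi3l1 ko 2. The log2 fold change of Stat3 ko against WT was 4.23 ± 1.44, with limma adjusted p = 0.0691. Cox7a1, at chr7:30184144-30186078, had 112, 168, 25.1 and 45.5 FPKM in Stat3 ko 1 to 4, 5.04, 115.9, 5.72 and 8.48 FPKM in Chi3l1 ko 1 to 4, and 4.08, 22.6, 6.50 and 4.30 FPKM in WT 1 to 4. The order of the libraries was close to that of Cox8b. The log2 fold change of Cox7a1 was 3.06 ± 0.95, with limma adjusted p = 0.0526. It was called in 7 of 20 alternatives, and leaving out WT 2 was one of them.

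Within its isoform pair Cox8b made up 34.4, 49.0, 20.3 and 20.5% of the Cox8b and Cox8a sum in Stat3 ko 1 to 4, 40.2% in Chi3l1 ko 2, 0.440 to 2.39% in the other Chi3l1 ko libraries and 0.161 to 8.48% in WT. Cox7a1 made up 21.9 to 57.5% of the Cox7a1 and Cox7a2 sum in Stat3 ko, 47.0% in Chi3l1 ko 2, 5.24 to 9.61% in the other Chi3l1 ko libraries and 3.85 to 18.0% in WT. Cox6a2, the heart and skeletal muscle isoform of Cox6a1, took a different order. It had 190, 149, 108 and 62.3 FPKM in Stat3 ko 2, Chi3l1 ko 2, Stat3 ko 4 and WT 2, the 4 libraries with the most Acta1, and 0.768 to 20.8 FPKM in the other 8. In Stat3 ko 1, with 176 FPKM of Ucp1 and 494 FPKM of Cox8b, Cox6a2 stood at 5.91 FPKM. In Stat3 ko 4, with 0.194 FPKM of Ucp1 and 94.4 FPKM of Cox8b, Acta1 stood at 2509 FPKM. Of the other restricted isoforms, Cox4i2, the lung isoform of Cox4i1, had 3.27, 2.74, 2.72 and 0.470 FPKM in Stat3 ko 1 to 4 against 0.639 to 1.80 FPKM in WT, and Ndufa4l2, a relative of Ndufa4 known as a hypoxia-induced gene, had 1.52 to 5.53 FPKM in Stat3 ko and 1.27 to 4.42 FPKM in WT. Both overlapped between the groups, and neither was called.

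**Figure D4:**
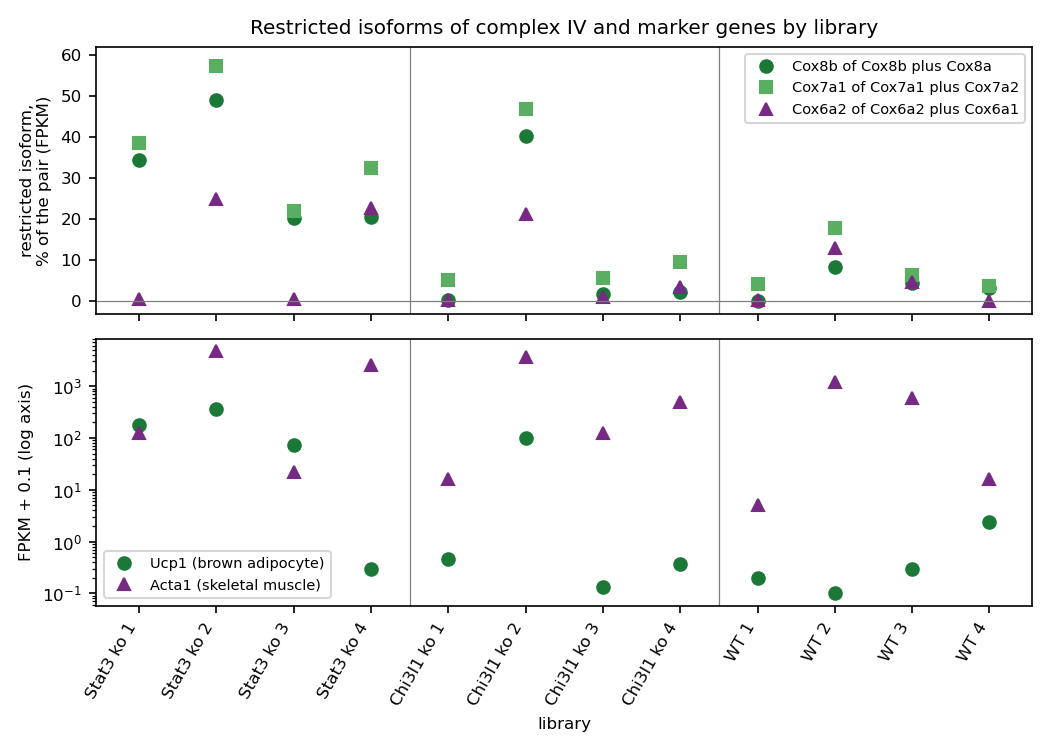
Top, percentage of the restricted isoform in the FPKM sum of each isoform pair, by library. Bottom, FPKM + 0.1 of Ucp1 and Acta1 on a log axis. Cox8b and Cox7a1 make up over 20% of their pairs in the 4 Stat3 ko libraries and Chi3l1 ko 2, and Cox6a2 is above 10% of its pair in the 4 libraries with over 1000 FPKM of Acta1.

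Chi3l1 ko against WT asks what loss of Chi3l1 changes in the same gland. No member passed the test. limma, edgeR and DESeq2 each called 0 of the tested members, where limma called 0.00733% of all tested genes, a single gene. At an unadjusted p under 0.05, 1 member was higher and 0 were lower, against 0.645% and 0.982% of all tested genes, and 0 members had groups without overlap, against 1.12% of all tested genes in the higher direction and 1.36% in the lower one. The median log2 fold change was 0.04, with 60 of 91 positive, against 0.00 over all tested genes, of which 51.2% were positive. Single libraries moved it in both directions. Without Chi3l1 ko 2 the median was -0.13 with 5 of 91 positive, without Chi3l1 ko 4 it was 0.14 with 80 positive, and without WT 2 it was 0.10 with 74 positive. With array weights, which give libraries far from their group less weight, it was -0.02 with 35 positive. The member with the lowest p was Ndufa12, an accessory subunit of complex I, with 12.7, 24.1, 10.2 and 13.8 FPKM in Chi3l1 ko 1 to 4 against 9.67, 13.4, 8.59 and 6.09 FPKM in WT 1 to 4. The groups overlapped, and the log2 fold change was 0.61 ± 0.26 with limma adjusted p = 0.9998. Ndufaf1, an assembly factor, had 9.58 ± 1.86 FPKM in Chi3l1 ko and 7.53 ± 1.05 FPKM in WT (SD, n = 4), a log2 fold change of 0.30 ± 0.21. On the negative side Ndufa4l2 (-0.58 ± 0.41), Ndufaf8 (-0.19 ± 0.16) and Atp5g3 (-0.18 ± 0.15) were not called. Among the restricted isoforms the standard errors, which pool the spread of all 3 groups, were 0.95 for Cox7a1, 1.44 for Cox8b and 1.73 for Cox6a2.

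Stat3 ko against Chi3l1 ko sets both knockouts side by side, and it shares libraries with each comparison above. Of 91 tested members 88 were positive, with a median log2 fold change of 0.38, against -0.02 over all tested genes, of which 48% were positive. limma called 1 member higher (1.10%) and 0 lower, where 5.19% of all tested genes were called higher and 8% lower. At an unadjusted p under 0.05, 13 members (14.3%) were higher, against 14.9% of all tested genes, a share near the background. In the lower direction it was 0 members, against 16.9% of all tested genes. Cox6b2 was the called member and the one without overlap, against 6.85% of all tested genes without overlap in that direction. It had 1.24 to 2.25 FPKM in Stat3 ko and 0.317 to 0.816 FPKM in Chi3l1 ko, and rose by 0.80 ± 0.17 with limma adjusted p = 0.0147. The call held in 17 of 19 alternatives and ended without Chi3l1 ko 1 (limma adjusted p = 0.0513). The other alternative, without the libraries with over 10 FPKM of Ucp1, leaves Stat3 ko 4 as the only Stat3 ko library and cannot decide the call. Leaving out Chi3l1 ko 2 gave 17 called members of 91, where 6.37% of all tested genes were called higher, and these included Sdhb, Uqcrc1, Uqcrc2, Ndufs1, Ndufs3, Ndufs7, Ndufv1, Cox7a1 and Cox8b. With all libraries Sdhb had 87.9 ± 38.7 FPKM in Stat3 ko and 52.5 ± 21.4 FPKM in Chi3l1 ko (SD, n = 4), a log2 fold change of 0.70 ± 0.30 with limma adjusted p = 0.133.

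Other genes of the pathway were read from lists. The 13 mitochondrially encoded subunits were all positive for Stat3 ko against WT, with a median log2 fold change of 1.12 and 0 called. An unadjusted p under 0.05 was reached by 11, against 16.6% of all tested genes in that direction. The complex IV gene mt-Co1 had 13110, 7310, 3877 and 2452 FPKM in Stat3 ko 1 to 4, against 2125 to 3460 FPKM in WT. The 16 genes of the tricarboxylic acid cycle, which supplies NADH and succinate, were all positive, with a median of 0.77 and 0 called. An unadjusted p under 0.05 was reached by 13 of the 16, against the same 16.6%. The 37 tested genes of a list of 41 other assembly factors had a median of 0.15. Of these, 1 was called higher and 0 lower, against 5.61% and 8.39% of all tested genes. The called gene was Tmem186, a complex I assembly gene, with 6.45 to 9.19 FPKM in Stat3 ko and 5.25 to 5.73 FPKM in WT. It rose by 0.39 ± 0.11 with limma adjusted p = 0.0398. The 20 electron carriers and nucleotide transporters had a median of 0.28 and 0 called. The adenine nucleotide carriers, both named after their values were seen, differed in sign, with Slc25a4 of muscle and heart at 0.96 ± 0.48 and the widely expressed Slc25a5 at -0.19 ± 0.12. The 18 regulators of mitochondrial biogenesis had a median of 0.14 and 0 called. Nrf1 and Gabpa, whose motifs were searched above, had log2 fold changes of -0.02 ± 0.10 and 0.04 ± 0.09, and Ppargc1a, the coactivator known for driving mitochondrial biogenesis, had 1.18 to 1.92 FPKM in Stat3 ko and 0.747 to 1.13 FPKM in WT.

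For Stat3 ko against Chi3l1 ko the same lists gave 2 calls, where 5.19% of all tested genes were called higher. Of 37 tested other assembly factors 1 was called, the complex II assembly factor Sdhaf1 (0.49 ± 0.14, limma adjusted p = 0.0431). Of 18 regulators of mitochondrial biogenesis 1 was called, Esrrg (0.50 ± 0.14, limma adjusted p = 0.0440), an orphan nuclear receptor of oxidative metabolism. For Chi3l1 ko against WT none of these lists held a called gene.

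The authors' deposited table lists only genes with an unadjusted p under 0.05. The share of all genes listed there was not worked out, so the counts of members have no background and are a description. For Stat3 ko against WT the authors' table holds 38 members, all higher, and 11 of them have an authors' adjusted p under 0.05. In the authors' deposited table the log2 fold changes are 3.95 for Cox8b, 3.21 for Cox7a1, 1.38 for Cox6b2 and 0.98 for Sdhb, and the other 7 are Ndufs7, Uqcrc1, Ndufs3, Ndufv1, Ndufs1, Uqcrq and Uqcrc2. For Chi3l1 ko against WT the authors' deposited table holds 1 member, Ndufa12, at 0.70 with an authors' adjusted p of 0.905.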

How the data were processed

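Total RNA was isolated with a Qiagen RNeasy Mini kit and libraries were made with NEBNext Ultra II, per the labels' protocols; neither says whether strand was kept. Per the submitters' processing notes, Trimmomatic, STAR, HTSeq, edgeR and limma were used with GRCm38 (mm10); no version or role is given. The authors deposited FPKM per gene for all 12 libraries, and comparison tables, restricted to an unadjusted p under 0.05, with raw counts, log2 fold changes and p-values.

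The product of FPKM and gene length, rescaled per library, was a whole count in 100% of non-zero values within 0.01 read, and 0 of 55832 deposited counts differed from them. The totals behind the deposited FPKM were 0.926 to 1.14 times the recovered totals. The 13643 genes that reached 1 FPKM in 4 or more libraries were tested as log2(FPKM + 1) with limma 3.58.1 (R 4.3.3), intensity trend and 3 group means, two-sided, with calls below a Benjamini-Hochberg adjusted p of 0.05. Fold changes are on that scale, which understates those of low genes, and errors are limma's moderated SE. Counts recovered this way were also tested with edgeR 4.0.16 and DESeq2 1.42.0. The members, role lists, pathway lists and marker lists were chosen with earlier results of these data known. Named are called members, the lowest p in each direction, isoform pairs, the extremes of each role and called pathway genes; others named were chosen after their values were seen. Alternatives were another pseudocount and filter, other scalings, array weights, fits of the compared groups, and libraries left out; leaving out the libraries with over 10 FPKM of Ucp1 was added after the data were seen. GENCODE M21 of GRCm38 holds 94 of 94 members, 88 at the same coordinates. Promoters came from RefSeq and were matched by symbol. The limma and edgeR fits of Stat3 ko against WT were tested on simulated counts. Tables were made in Python 3.11.15 with pandas 2.3.3 and numpy 2.4.6, figures with matplotlib 3.10.9. Some results for single genes are not reported here.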

Additional observations from a re-analysis of the deposited data

Results flagged for a closer look

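The values of 46 members chosen by the rule for named genes and 3 measures of whole libraries were examined in each genotype. In 23 of these 147 groups of 4 libraries, 1 library lay far from the other 3 (gap to the nearest over the whole range above the critical value of a Dixon test at 95%), where chance gives about 1 in 20. The members were named partly for extreme or differing values and share libraries, so the groups are not independent and the count is a description. Most were highest values in Chi3l1 ko 2: 357.7 FPKM for Cox8b, 115.9 for Cox7a1, 149.3 for Cox6a2 and 1.61 for Cox4i2 among restricted isoforms, 44.8 for Ndufs3, 19.7 for Ndufs1 and 85.6 for Ndufs8 in the complex I core, 12.3 for the assembly factor Ndufaf1, 121.3 for Sdha, 84.6 for Sdhb and 43.5 for Sdhc in complex II, 180.0 for Uqcrfs1, the Rieske protein of complex III, and 57.2 for Cox6c. The same library had 97.7 FPKM of Ucp1 and 3693 FPKM of Acta1, and the part of those cells was not tested.

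Highest values in WT 2 were 257.9 FPKM for Cox6b1, 36.4 for Cox6c, 22.6 for Cox7a1, 107.8 for Cox7b, 147.4 for Ndufa4, 23.1 for Ndufaf8 and 59.9 for Ndufb10; that library had 1224 FPKM of Acta1 and 0 FPKM of Ucp1. Uqcrc2 was highest in WT 4 at 57.2 FPKM. Atp5g2 was lowest in Chi3l1 ko 4 at 65.4 FPKM, the library in which 64 of 91 tested members (70.3%) were below all WT libraries, against 19.9% of all tested genes. Cox8c was at 0.328 FPKM in Chi3l1 ko 3, from 3 counts, and at 0 in the other 3 libraries of that group.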

How the results depend on the processing

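No paired analysis was possible because the labels give the groups no shared replicate numbers. For Stat3 ko against WT limma called 1 of 91 members, and 5.61% of all tested genes higher. Brackets below give the share of all tested genes called higher in the same alternative. The number of members called was 3 with a pseudocount of 0.1 (6.245%), 2 with median-of-ratios scaling (5.996%) and 2 with an equal nuclear protein-coding sum (5.31%). It was 0 without the filter (1.43%), 0 with quantile normalization (4.215%) and 0 in a fit of the compared groups only (1.23%). edgeR called 2, with 9.996% of its 16446 genes called higher, and DESeq2 15, with 8.73% of its 31268. With 1 library left out at a time the number of members called was 0 to 11. It was 11 without Stat3 ko 4 (10.8%), 10 without Stat3 ko 3 (7.21%), and 0 without Stat3 ko 2 (3.26%), WT 3 (2.40%) or WT 4 (1.62%). The median fold change was 0.10 without the libraries over 2% mitochondrial counts and 0.20 to 0.52 in the other alternatives. For Stat3 ko against Chi3l1 ko, with 1 member called (5.19%), the number was 0 with a mean of at least 5 FPKM (3.98%), which removes Cox6b2. It was 9 without the libraries over 2% mitochondrial counts (5.46%) and 2 with DESeq2 (7.88%). With 1 library left out it was 0 to 17. It was 0 without Chi3l1 ko 1 (1.29%), 17 without Chi3l1 ko 2 (6.37%), 2 without Stat3 ko 3 (5.53%) and 3 without Stat3 ko 4 (9.10%). Chi3l1 ko against WT had 0 members called in every alternative, while the median ranged from -0.13 to 0.14. The cause of these shifts was not tested. Without the libraries over 10 FPKM of Ucp1, Stat3 ko holds a single library, assumed to vary like the other groups. Member counts called in that alternative are therefore not given for Stat3 ko. Over all alternatives, the one without these libraries included, 556 values of named genes stayed the same. For these, called values stayed called, and uncalled ones stayed uncalled with a fold change shifted by no more than the SD within groups. Another 18 stayed uncalled but shifted by more than that SD, 26 passed the threshold and 11 no longer did. These counts include the fit with a single Stat3 ko library, which cannot decide a call. Of all these values, 0 changed the sign of a called value. Where a group is at a few counts, as for Cox6b2 and Cox4i2, depth limits the estimate.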
